A study of Mus musculus with 48 samples.

Results

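The aryl hydrocarbon receptor axis was followed through 8 genes, out of 46517 genes in the count table: Ahr, Arnt, Ahrr, Tiparp, Cyp1a1, Cyp1a2, Cyp1b1 and Aldh3a1. The 8 genes were taken by name and were chosen by their TPM and counts in all 5 groups, so their own levels and fold changes are a description and carry no test. Bulk RNA-seq by Smart-seq3, a full-length library method, was available for 16 samples with 3 technical libraries each. The groups were explants (5 samples), livers (3), hepatocyte-enriched preparations (3), naïve irises (3) and in vitro spheroids (2).

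All groups were labelled as wild-type albino mice of the strain C57BL/6N, a strain that the study's own methods do not list. The study as a whole used adult mice of both sexes, and by its reporting summary sex was not recorded outside the diet experiments. Explants, numbered 1, 2, 4, 5 and 6, were spheroids engrafted in the anterior chamber of the eye and dissected 2 months post-tx together with the iris around them. Naïve irises carried no graft. Livers were whole tissue from donor mice, and the hepatocyte-enriched preparations came from collagenase-perfused livers and still held other liver cells. The in vitro spheroids were made from such preparations and received plating medium with serum, later replaced in part by serum-free maintenance medium. By the study's methods, both media also held dexamethasone, insulin, transferrin and selenium. The labels do not say which samples came from separate animals, so p-values measure the spread between these samples only. In bulk samples, fewer cells of a type and less RNA per cell cannot be told apart.

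The Ahr protein is a ligand-activated transcription factor of the bHLH-PAS family that waits in the cytoplasm with Hsp90 and the co-chaperone p23 (Ptges3). After binding a ligand it enters the nucleus, pairs with Arnt and binds DNA at a short core sequence, GCGTG. In liver the axis is best known for raising enzymes that oxidise polycyclic aromatic compounds, first of all Cyp1a1. Ahrr, a repressor that competes for Arnt, and Tiparp, an ADP-ribosyltransferase that marks Ahr for breakdown, limit the response.

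Cyp1a1 and Cyp1a2 are neighbours on chromosome 9 that point away from each other, and their starts lie 13958 bases apart. The 250 bases before the start of each are shown because the levels of these neighbours parted in the spheroids. They were read from RefSeq in GRCm38.p6, written 5′ to 3′ on the strand of the gene, with GCGTG (or its complement CACGC) in capitals. The Cyp1a1 stretch is chr9:57697363-57697612 on the plus strand and the Cyp1a2 stretch is chr9:57683656-57683905 on the minus strand.
Cyp1a1: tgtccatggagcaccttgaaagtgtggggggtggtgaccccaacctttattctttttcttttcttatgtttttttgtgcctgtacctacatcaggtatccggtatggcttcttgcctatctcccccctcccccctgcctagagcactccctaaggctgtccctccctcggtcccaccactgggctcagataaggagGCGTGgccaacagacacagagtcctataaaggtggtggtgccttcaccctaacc
Cyp1a2: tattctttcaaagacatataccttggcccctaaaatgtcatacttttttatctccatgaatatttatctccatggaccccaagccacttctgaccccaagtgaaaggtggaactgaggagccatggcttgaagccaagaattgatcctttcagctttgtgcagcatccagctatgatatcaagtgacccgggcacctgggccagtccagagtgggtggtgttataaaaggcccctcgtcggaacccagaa
The Cyp1a1 stretch held GCGTG at 1 place, 54 to 50 bases before the start, and the Cyp1a2 stretch held it on neither strand. The rest of the sequence between the genes was not searched, so receptor sites further away may exist for either gene. A link between these matches and the levels was not tested. Among 32851 promoters of this length, 28.2% held GCGTG on either strand, so its presence is common. Both stretches held TATAAA, beginning 30 bases before the start in Cyp1a1 and 29 in Cyp1a2, against 2.63% of promoters with TATAAA in the last 50 bases on the gene's strand.

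Short windows of 25 bases around the other matches are shown for Ahrr, Arnt, Tiparp and Cyp1b1, on the strand of the gene. Each name is followed by the distance of the first capital from the start in bases.
Ahrr, 107 bases: ttgaaagggcGCGTGgcaggcaggg
Ahrr, 82 bases: acaaggatgtGCGTGcgccctctgc
Ahrr, 27 bases: ggggcggctcGCGTGctggggtggg
Arnt, 29 bases: atagtttgggGCGTGtcttctgccc
Tiparp, 170 bases: ccgtccggagCACGCgcacgggagg
Cyp1b1, 76 bases: tcccgcccctCACGCcccaccccct
Ahrr held the core 3 times, and its match 27 bases before the start was also the longer TNGCGTG, which contains the core and stood in 4.10% of promoters. Tiparp and Cyp1b1 held it on the opposite strand. Of the 6 members with a promoter in the RefSeq table, 5 held the core within the 250 bases searched. A match is a string of letters and not a shown binding site. Ahr and Aldh3a1 were not matched.

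Ahr (ENSMUSG00000019256, chr12:35497974-35535038, minus strand), the receptor, was highest in liver and lowest in the naïve iris. The livers held 18.1, 19.6 and 17.9 TPM (transcript counts scaled for gene length and library total). Spheroids held 16.2 and 12.9 TPM, and hepatocyte-enriched preparations 8.63, 22.2 and 8.61 TPM. Preparation 2 was above every liver and the other two were below, and without it the preparations averaged 8.62 TPM. Explants held 3.97, 6.06, 5.86, 5.91 and 7.45 TPM and irises 1.36, 1.46 and 2.85 TPM. Explants and irises did not overlap, and all livers were above all explants.

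Arnt (ENSMUSG00000015522, chr3:95434388-95497240, plus strand), the partner of the receptor and also of the hypoxia factors, was the most even of the members. Group means ran from 16.1 ± 1.49 TPM (SD, n = 3) in the hepatocyte-enriched preparations through 21.1 ± 0.534 TPM (n = 3) in liver to 35.6 ± 2.36 TPM (n = 2) in spheroids. Explants with 32.1 ± 2.72 TPM (n = 5) and irises with 31.2 ± 1.79 TPM (n = 3) lay between liver and spheroids. Explants overlapped with both irises and spheroids, while liver and the preparations overlapped with no neighbour in the order.

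Ahrr (ENSMUSG00000021575, chr13:74211118-74292331, minus strand) was close to the limit of detection outside the eye. The 3 livers together gave 2 counts, the 3 preparations 2 counts and both spheroids 3 counts. Irises held 0.965, 0.826 and 2.60 TPM, from 67 counts in all, and explants 2.57, 1.65, 0.157, 1.84 and 0.308 TPM, from 123 counts. Summed counts per library total were 26 times higher in iris than in liver, with a 95% counting interval of 6.92 to 219. Explants 4 and 6 were below all irises and explants 1, 2 and 5 were within their range, so the groups overlapped.

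Tiparp (ENSMUSG00000034640, chr3:65528410-65555518, plus strand) followed the ocular tissue. It averaged 52.3 ± 5.92 TPM (n = 3) in irises and 49.3 ± 10.3 TPM (n = 5) in explants, and these groups overlapped. The livers had 8.85 ± 3.06 TPM (n = 3), the preparations 12.5 ± 2.52 TPM (n = 3) and spheroids 18.7 ± 1.01 TPM (n = 2). Both spheroids were above all preparations and livers, and all of these were below every explant. Counting did not use strand, and the antisense gene 4931440P22Rik shares exonic bases with Tiparp, so reads in the shared bases cannot be told apart. Counts of 4931440P22Rik ran from 1 to 55 per sample, and those of Tiparp from 40 to 555.

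**Figure D1:**
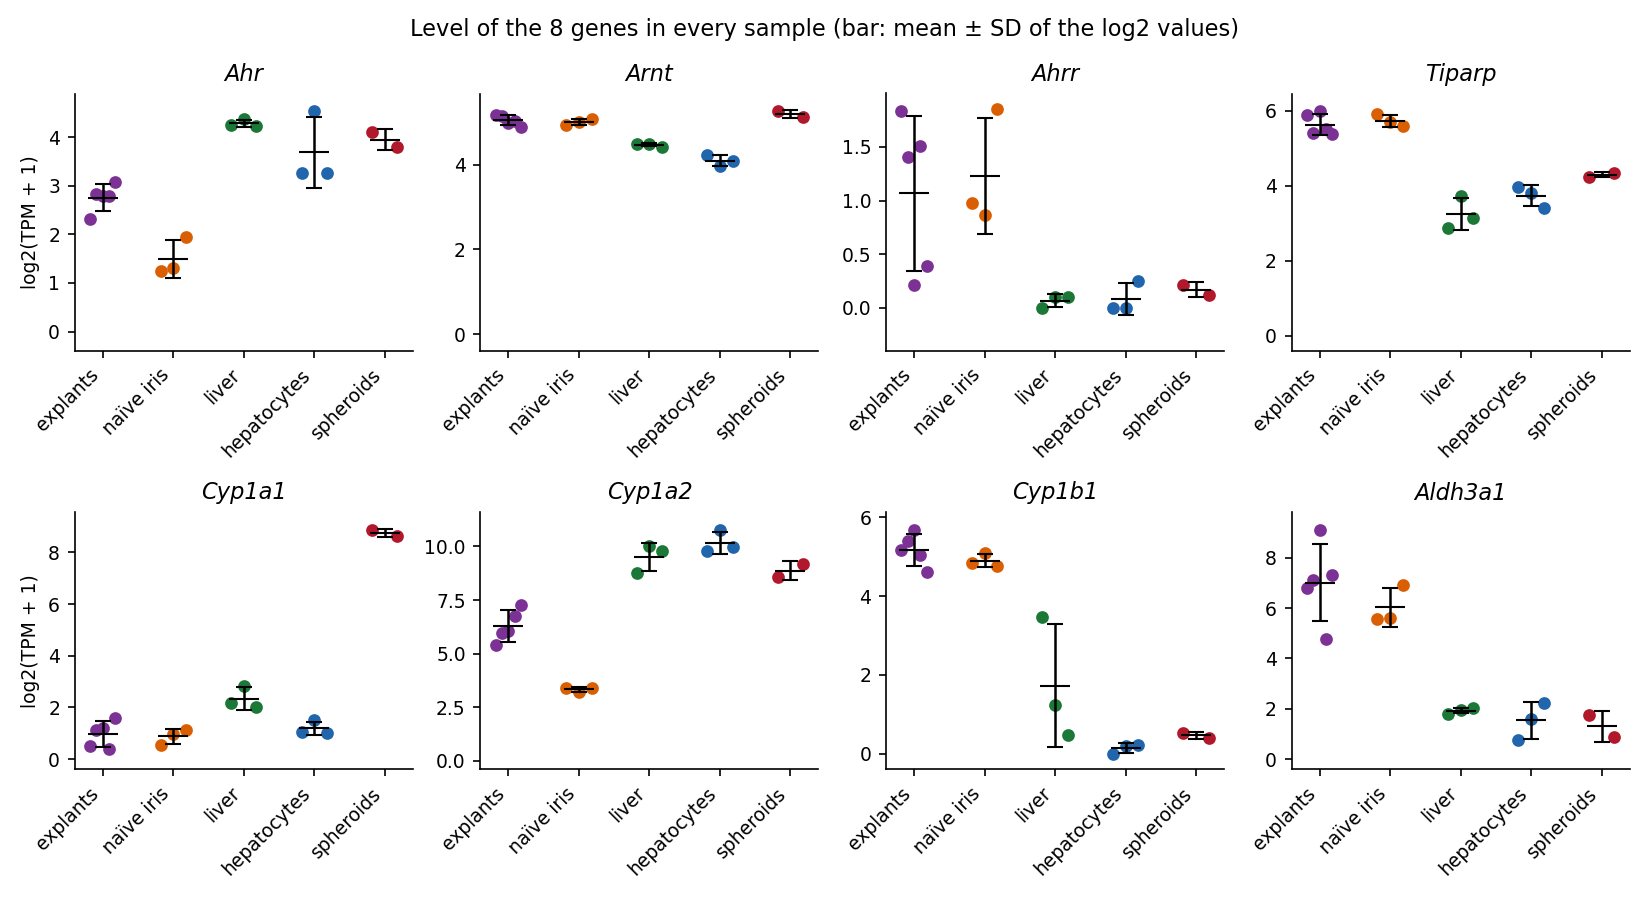
Level of each of the 8 genes as log2(TPM + 1) (vertical axis) in the 5 groups (horizontal axis). Points are samples and bars give the mean ± SD of the log2 values. Cyp1a1 in spheroids stands far above the other groups, whereas Tiparp, Cyp1b1 and Aldh3a1 are high in explants and irises and low in liver, hepatocyte-enriched preparations and spheroids.

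Cyp1a1 (ENSMUSG00000032315, chr9:57697613-57703822, plus strand), the monooxygenase most used as a readout of the receptor, was almost silent in every group but the spheroids. Spheroids held 463 and 398 TPM, from 1595 and 1296 counts. The livers held 3.46, 6.18 and 3.02 TPM and the preparations 1.07, 1.82 and 1.03 TPM. Explants had 0.416, 1.17, 1.30, 0.327 and 2.01 TPM and irises 0.458, 0.980 and 1.16 TPM. Outside the spheroids no sample exceeded the 6.18 TPM of liver 2. The counts came from all technical libraries, with 583, 510 and 502 counts in spheroid 1 and 483, 428 and 385 in spheroid 2.

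Cyp1a2 (ENSMUSG00000032310, chr9:57676937-57683655, minus strand), a hepatocyte enzyme of the same subfamily that oxidises caffeine and aromatic amines, had another order. The preparations held 879, 1716 and 1015 TPM, the livers 437, 1033 and 871 TPM and the spheroids 375 and 582 TPM. Liver 1 lay within the range of the spheroids, and without it the livers averaged 952 TPM. Explants held 41.7, 61.1, 64.5, 108 and 152 TPM and irises 8.14 to 9.62 TPM. No explant overlapped with the irises or with any liver-derived group.

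The level of Cyp1a1 per 100 TPM of Cyp1a2 put both genes on a common scale. It was 123 and 68.4 in the spheroids, 0.347 to 0.792 in livers and 0.102 to 0.122 in the preparations. Explants had 0.302 to 2.02 and irises 4.82 to 12, the latter from 11 Cyp1a1 counts in all. The spheroids were the samples in which Cyp1a1 came near the level of Cyp1a2.

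**Figure D2:**
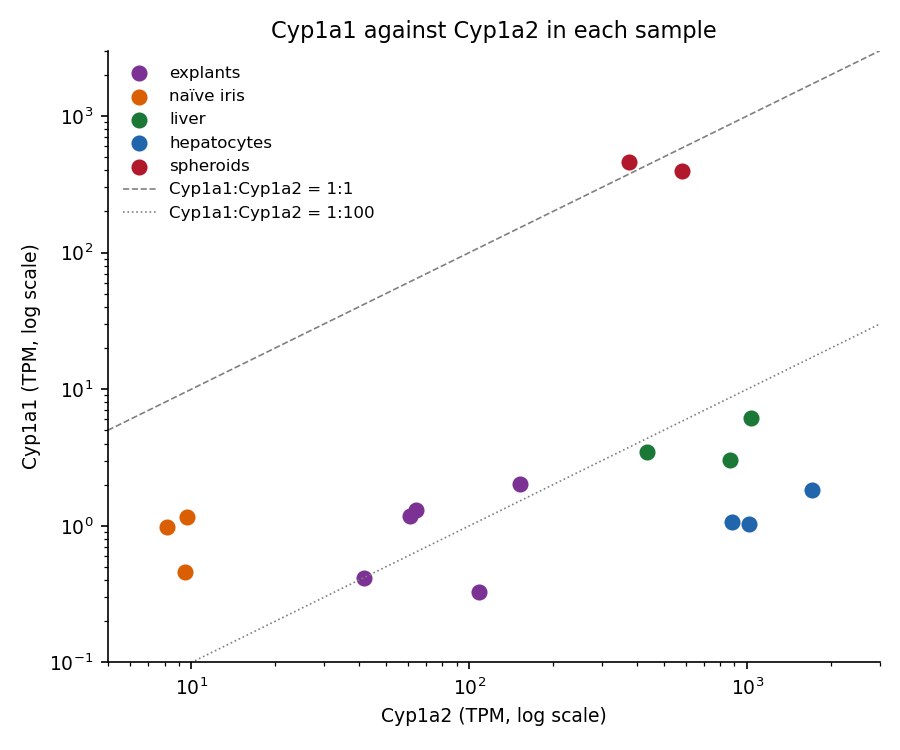
Cyp1a1 (vertical axis, TPM, log scale) against Cyp1a2 (horizontal axis, TPM, log scale), a point per sample. Dashed and dotted lines mark equal levels and a ratio of 1 to 100. The spheroids lie at the line of equal levels, livers and hepatocyte-enriched preparations below the dotted line, and irises at the left.

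The irises gave 84 Cyp1a2 counts, a mean of 9.09 TPM or 1.17% of the liver mean. Hepatocyte markers were present in the irises too, with all 9 at 1 TPM or more. Hnf4a stood at 0.788% of its liver level, Apob at 1.01%, Cps1 at 1.15% and Asgr1 at 1.29%. The other 5 had larger shares than Cyp1a2, with Serpina1a at 6.89%, Ass1 at 6.99%, Trf at 17.6%, Ttr at 20.5% and Alb at 25.2%. Duplicates had been removed from the reads, which may limit the counts of very abundant transcripts. Alb averaged 3222 TPM in liver, Trf 2106 TPM and Ttr 1713 TPM. Their liver levels may thus be understated and their iris shares overstated. Their part in the iris level of Cyp1a2 was not tested.

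Cyp1b1 (ENSMUSG00000024087, chr17:79706953-79715041, minus strand), the family member of mesenchymal and ocular tissue that is needed for normal drainage of the anterior chamber, was high where the eye was sampled. Explants held 34.8, 41.2, 50.3, 31.7 and 23.4 TPM and irises 27.9, 32.9 and 26.1 TPM. The preparations gave 2 counts in all and the spheroids 5. Livers held 10.1, 1.37 and 0.386 TPM, and the mean of 3.94 TPM fell to 0.879 TPM without liver 1. Liver 1 also had the highest summed level of 5 fibroblast and smooth muscle markers among livers, with 1056 TPM against 466 and 525 TPM, and the part of these cells in its Cyp1b1 level was not tested. Summed counts per library total of Cyp1b1 in explants were 301 times those of the preparations (95% counting interval 83.3 to 2489) and 85.4 times those of the spheroids (36.5 to 263).

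Aldh3a1 (ENSMUSG00000019102, chr11:61207537-61218421, plus strand), an aldehyde dehydrogenase stored in large amounts by the corneal epithelium, varied most among the explants. Explants held 109, 136, 541, 26.5 and 156 TPM and irises 46, 47.3 and 120 TPM. Livers stayed at 2.51 to 3.06 TPM, the preparations at 0.721 to 3.70 TPM and spheroids at 0.829 and 2.35 TPM. The 4 markers of corneal epithelium (Krt12, Krt5, Krt14 and Upk1b) summed to 155, 171, 1137, 25.2 and 234 TPM in explants 1, 2, 4, 5 and 6. In the irises they summed to 59.8, 68.8 and 218 TPM. Explant 4 was highest and explant 5 lowest in both measures, and iris 3 was the highest iris in both. In liver-derived samples the 4 markers summed to 2.20 to 15.1 TPM, with Krt14 at 0 in spheroids. The part of corneal cells in the level of Aldh3a1 was not tested.

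**Figure D3:**
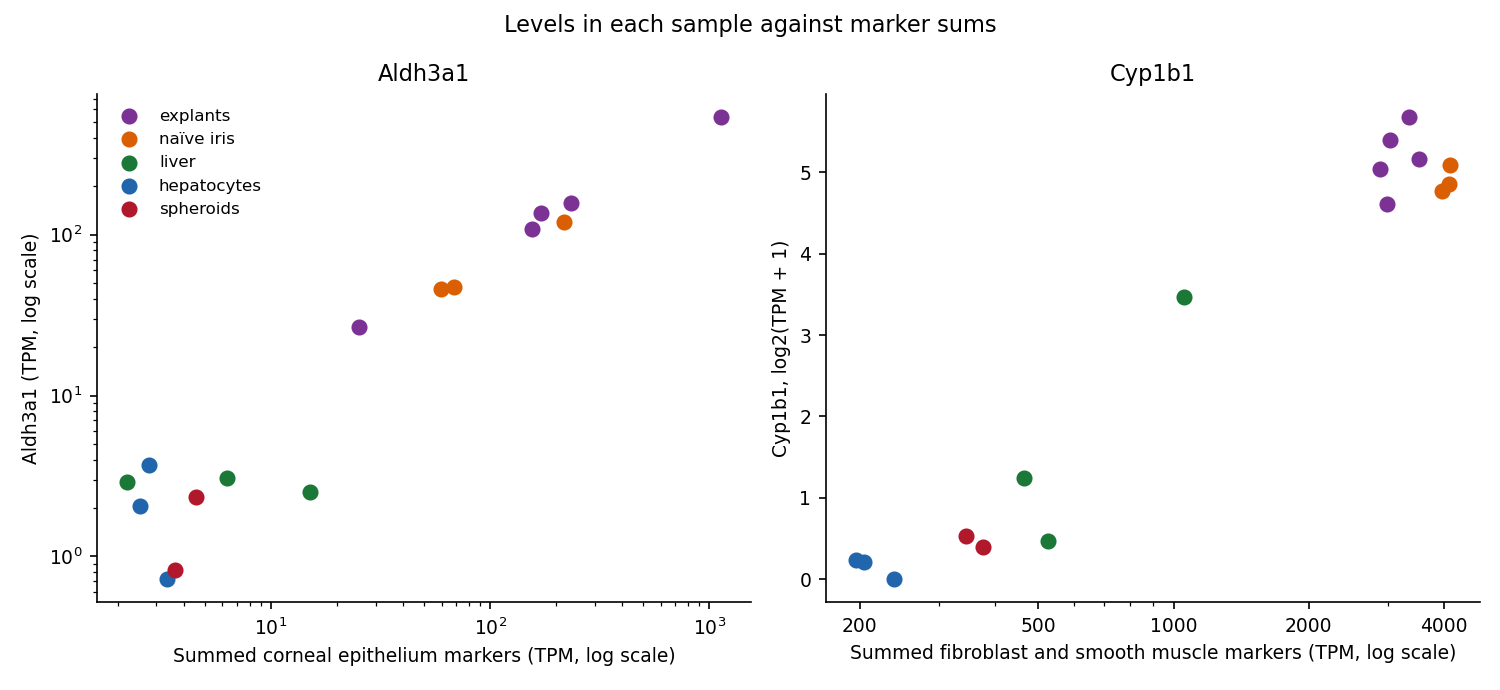
Left, Aldh3a1 (TPM, log scale) against the summed level of 4 corneal epithelium markers (TPM, log scale). Right, Cyp1b1 as log2(TPM + 1) against the summed level of 5 fibroblast and smooth muscle markers (TPM, log scale). Points are samples coloured by group, and explant 4 is at the upper right of the left plot with 541 TPM of Aldh3a1.

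The data files count duplicate-free reads, and the densest gene of at least 500 bases reached 1.44 to 1.70 counts per base in a library. Cyp1a2 reached at most 0.758 counts per base, Aldh3a1 0.390 and Cyp1a1 0.223, and the other members stayed below these. Total counts per sample ran from 2718518 to 6789648.

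The spheroids were compared with hepatocyte-enriched preparations to ask what changed in culture. In edgeR's quasi-likelihood fit across all genes, a call needed an adjusted p below 0.05 together with a log2 fold change beyond 1 in either direction. Of the 12247 genes tested, 17.2% were called, and of the 5 members tested 2 were called. Since the members were chosen with these levels known, nothing is read from that count. The log2 fold change was 8.0 ± 0.24 (SE) for Cyp1a1 and -1.63 ± 0.38 for Cyp1a2. Without spheroid 1 the value for Cyp1a2 was -1.26 and it was not called. Leaving out a spheroid, here and in the later comparisons, leaves 1 sample in that group, which is then assumed to vary like the samples of the other group. Arnt differed by 0.81 ± 0.15, under the fold limit, Tiparp by 0.26 ± 0.24 and Ahr by -0.18 ± 0.41. The value for Ahr was 0.43 without preparation 2. Scaling by library size alone moved the median of all genes from 0.01 to 0.27 and the calls over all genes from 996 higher and 1116 lower to 1531 and 808, and with it Ahr was at 0.08 and Arnt at 1.07 and called.

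Against liver, Cyp1a1 was again far higher in spheroids. Of 12959 genes tested, 19.2% were called, and of the 5 members tested Cyp1a1 was called, with a log2 fold change of 6.54 ± 0.29. Cyp1a2 differed by -0.82 ± 0.40, and by -1.14 without liver 1, when it was called. Tiparp differed by 0.95 ± 0.33, and by 1.27 without liver 2, when it was called. Arnt differed by 0.63 ± 0.15 and Ahr by -0.48 ± 0.19. The comparison shares the spheroids with the one before.

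**Figure D4:**
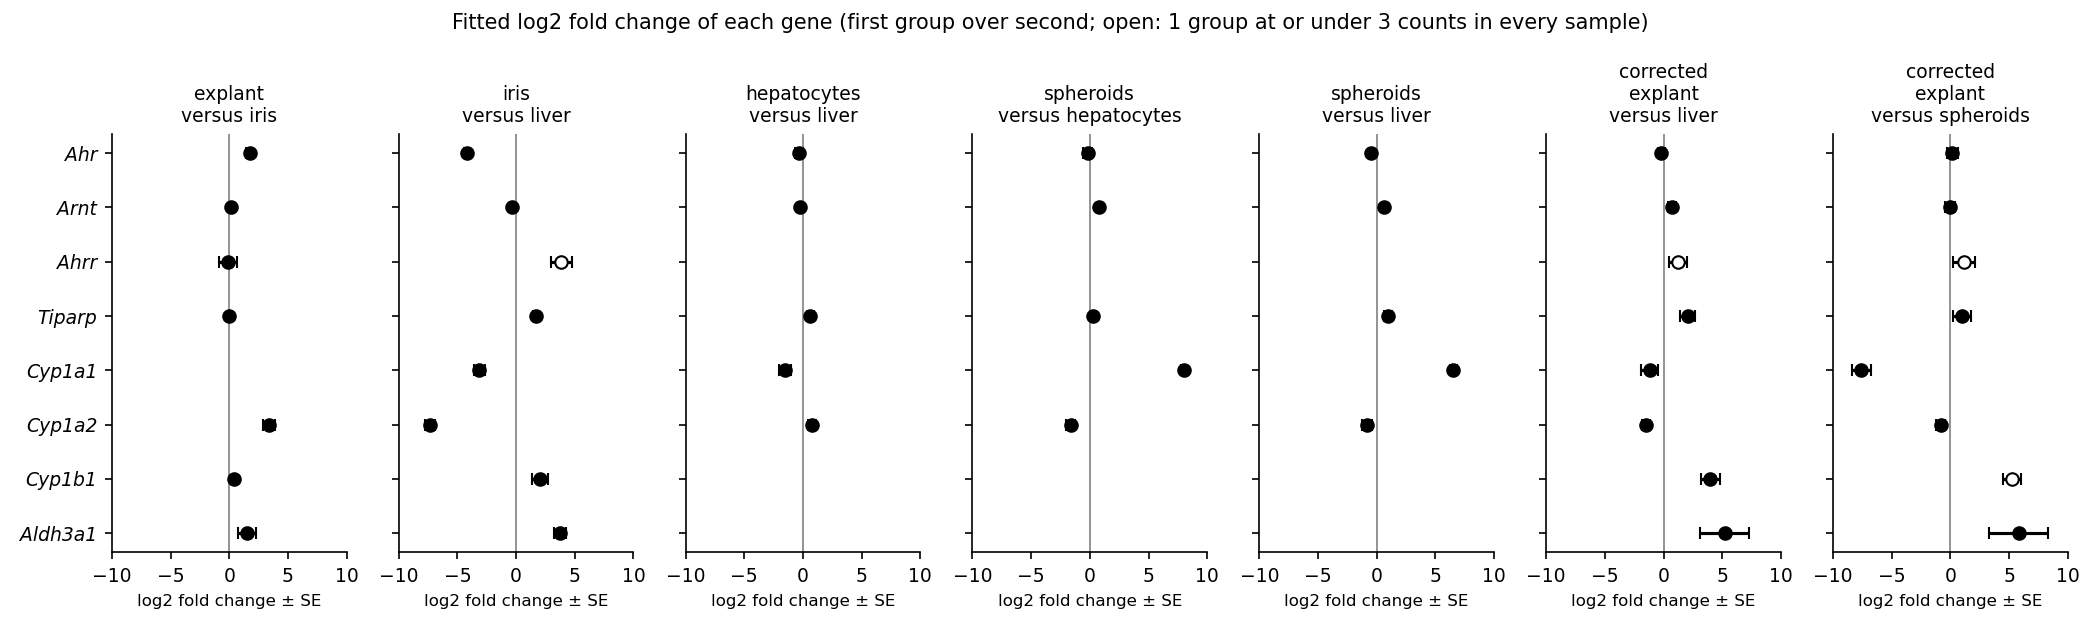
Fitted log2 fold change of each member with its standard error (horizontal axis) in the 7 comparisons, first group over second. Open circles mark members that never exceeded 3 counts in the samples of a group, and absent points were not tested. Cyp1a1 stands at 8.0 and 6.54 in spheroids against preparations and liver.

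The other genes of the pathway were followed through 5 lists with 39 genes, none of them a member. These lists and the marker lists were chosen with earlier results of these data known. Their p-values and counts of calls, here and below, are therefore a description and not independent tests. In spheroids against hepatocyte-enriched preparations, 32 of them were tested, 3 were higher and 5 were lower, beside 8.13% and 9.11% of all genes in these directions. The median log2 fold change was -0.01, against 0.01 over all genes. Without spheroid 1, 5 were called.

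Among the 14 other genes that the receptor is known to induce, 12 were tested and the called ones went both ways. Htatip2, a short-chain reductase, had 628 and 565 TPM in spheroids against 161 to 199 TPM in the preparations (log2 fold change 1.44 ± 0.16, edgeR adjusted p = 0.0013). Nfe2l2, the transcription factor of the oxidative stress response, had 242 and 242 TPM against 58.7 to 96.3 TPM (1.32 ± 0.21, edgeR adjusted p = 0.0043). Gsta1, a glutathione transferase, was higher as well (1.98 ± 0.56, edgeR adjusted p = 0.036), but its value was 1.27 and not called without spheroid 1, nor was it called without preparation 2 or 3 (1.66 and 1.81). Its close paralogue Gsta2 was lower (-1.62 ± 0.33, edgeR adjusted p = 0.011), at -1.44 and not called without spheroid 2, and reads of this pair may be split uncertainly. Nqo1, a quinone reductase of the same battery, had a log2 fold change of 0.84 ± 0.36 and was not called (edgeR adjusted p = 0.13).

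The enzymes that turn tryptophan into kynurenine and other ligands of the receptor went both ways, and the called ones were lower. Ido2, a dioxygenase at the entry of the pathway, fell from 101 to 118 TPM in the preparations to 15.3 and 26.1 TPM in spheroids (log2 fold change -2.74 ± 0.30, edgeR adjusted p = 0.0010). Afmid, the formamidase of the following step, fell from 219 to 242 TPM to 38.7 and 48.7 TPM (-2.71 ± 0.23, edgeR adjusted p = 0.00037). Kyat1, a kynurenine aminotransferase, passed at the limit (-1.0 ± 0.29, edgeR adjusted p = 0.037), and with -0.98 in DESeq2 and -0.99 in limma-voom it was not called, nor without preparation 1 (-0.98), preparation 3 (-0.78) or spheroid 1 (-0.73). Tdo2, the main hepatic dioxygenase, held 571 and 861 TPM in spheroids against 798 to 939 TPM and was not called. Thus 3 of the 6 tested members of this list were called lower.

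Of the 4 electron donors of P450 enzymes, Cyb5b was called (-1.11 ± 0.22, edgeR adjusted p = 0.011), and it was at -0.88 and not called without spheroid 1. Of the 6 tested relatives of Arnt and Ahr, 0 were called by edgeR, limma-voom or DESeq2, while 2 had an unadjusted p under 0.05.

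Against liver, 31 pathway genes were tested, with 3 higher and 3 lower, beside 8.24% of all genes higher and 1424 of 12959 lower. Nfe2l2 (1.21 ± 0.16, edgeR adjusted p = 0.0022) and Htatip2 (1.10 ± 0.22, adjusted p = 0.010) were higher again, the latter at 0.93 and not called without liver 2. Bmal1 (Arntl), the clock factor of the bHLH-PAS family, was higher by 2.67 ± 0.50 (edgeR adjusted p = 0.0075), and no time of day is given for the samples. Ido2 (-2.18 ± 0.41, edgeR adjusted p = 0.0076), Afmid (-2.51 ± 0.23, adjusted p = 0.00072) and Cyp2a5, a coumarin hydroxylase (-1.92 ± 0.25, adjusted p = 0.0021), were lower. Ido2 and Afmid thus fell against both references, which share the spheroid samples.

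**Figure D5:**
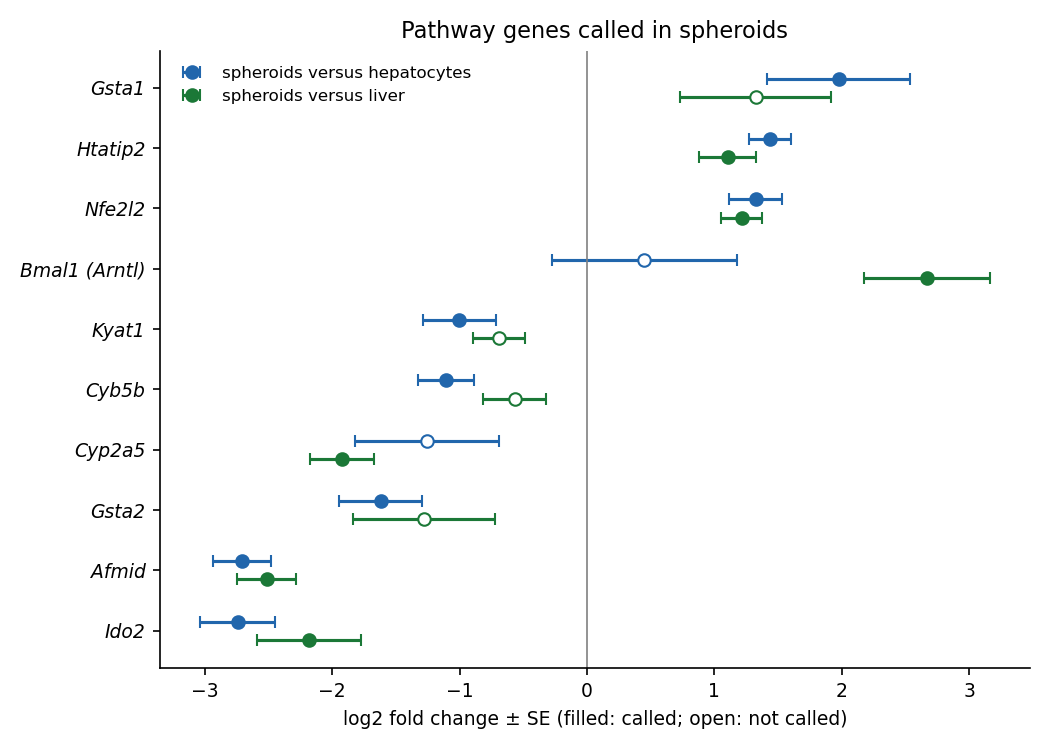
Log2 fold change with standard error (horizontal axis) of the 10 pathway genes called in spheroids against hepatocyte-enriched preparations (blue) or against liver (green). Filled points were called and open points were not. Htatip2, Nfe2l2, Ido2 and Afmid were called in both comparisons.

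Most markers of both zones of the liver lobule were called lower in spheroids, those of pericentral hepatocytes, where Cyp1a2 is normally strongest, and those of periportal hepatocytes. The 8 markers summed to 386 and 569 TPM in spheroids, 5068 to 7105 TPM in livers and 5895 to 10293 TPM in the preparations. Cyp2e1 held 152 and 137 TPM in spheroids against 2449 to 3332 TPM in the preparations (log2 fold change -4.71 ± 0.30, edgeR adjusted p = 0.00012). Of the 8 pericentral markers 7 were called lower against the preparations and 8 against liver, with median log2 fold changes of -4.53 and -4.13. Of the 5 periportal markers 3 and 4 were called lower, with medians of -2.93 and -2.99. The periportal markers summed to 1439 and 1418 TPM in spheroids, 2117 to 3568 TPM in livers and 322 to 2811 TPM in the preparations. The 322 TPM belonged to preparation 2, so both spheroids were above it. Preparation 2 also had the highest pericentral sum (10293 TPM), Cyp1a2 (1716 TPM) and Ahr (22.2 TPM) of the preparations. The 9 general hepatocyte markers summed to 10343 and 11202 TPM in spheroids and 11310 to 13260 TPM in the preparations. Because duplicates were removed, counts of the most abundant of these markers may be limited, and the sums may understate a difference. The part of these markers in the Cyp1a2 difference was not tested.

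The hepatocyte-enriched preparations were compared with whole liver, where effects of isolation and of cell content cannot be told apart. Median log2 fold changes were -4.79 for cholangiocyte, -2.81 for stellate cell and -2.05 for fibroblast and smooth muscle markers, with 2 called lower in each list. Of the endothelial, sinusoidal and macrophage markers 0 were called. Of 12236 genes tested, 2.72% were called, 0.409% higher and 2.31% lower, and 0 of the 5 members and 0 of the 30 pathway genes were called by edgeR. At an unadjusted p under 0.05 there were 1 member and 10 pathway genes, and limma-voom called 0 of both, DESeq2 1 of each. The log2 fold change of Cyp1a1 was -1.53 ± 0.48 and the groups did not overlap. That of Cyp1a2 was 0.75 ± 0.35, of Tiparp 0.63 ± 0.29, of Arnt -0.25 ± 0.12 and of Ahr -0.36 ± 0.34. Cyp1b1 was not tested, and its summed counts per library total in liver were 37.1 times those of the preparations (95% counting interval 9.95 to 311), from 2 counts in the preparations. Liver 1 gave 74 of the liver counts, liver 2 gave 10 and liver 3 gave 3, a spread that the interval does not cover.

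The naïve iris was compared with liver to show what iris tissue brings to an explant. Of 15459 genes tested, 51.9% were called, and so were 7 of the 8 members. Aldh3a1 (log2 fold change 3.75 ± 0.49), Ahrr, Cyp1b1 (2.03 ± 0.68) and Tiparp (1.67 ± 0.24) were on the iris side. Cyp1a2 (-7.32 ± 0.40), Ahr (-4.17 ± 0.26) and Cyp1a1 (-3.12 ± 0.49) were on the liver side. Cyp1b1 was at 4.10 without liver 1, and it was not called without iris 1 (2.06), iris 2 (1.94) or liver 2 (1.63), nor by DESeq2 (2.07). Arnt was -0.32 ± 0.10 with TMM scaling but 0.36 by library size alone, where the median of all genes moved from 0.11 to 0.80, so its direction depended on the scaling. Over all genes 4606 were called higher in iris and 3422 lower with TMM, and 6803 and 1973 by library size.

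Of 34 pathway genes tested between iris and liver, 5 were higher in iris and 20 lower, beside 29.8% and 22.1% of all genes. Lower in iris were the liver enzymes Tdo2 (14.1 against 789 TPM, log2 fold change -6.69 ± 0.18, edgeR adjusted p = 8.1e-09), Ido2 (-7.63 ± 0.43, adjusted p = 5.0e-07) and Cyp2a5 (-7.21 ± 0.22, adjusted p = 1.4e-08). Higher in iris were Arnt2 (6.20 ± 0.56, edgeR adjusted p = 1.1e-05), Hif3a (4.12 ± 0.51, adjusted p = 8.0e-05), Hif1a (2.21 ± 0.12, adjusted p = 5.2e-07) and Slc7a5, an amino acid transporter (3.28 ± 0.30, adjusted p = 1.1e-05). Nqo1, the fifth, was higher by 1.11 ± 0.45 (edgeR adjusted p = 0.048) and lost its call without any of irises 1, 2 and 3 or livers 2 and 3 (0.77 to 1.18).

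Explants were compared with the naïve iris to show what the graft added. Of 16764 genes tested, 6.47% were called, and of the 7 members tested 2 were called. The log2 fold change was 3.36 ± 0.50 for Cyp1a2 and 1.73 ± 0.33 for Ahr, and for Ahr it was 1.51 without iris 1 and 1.57 without iris 2 and then not called. Aldh3a1 was at 1.52 ± 0.79 with overlapping groups, and at 0.72 without explant 4. Cyp1b1 was at 0.41 ± 0.20, Arnt at 0.14 ± 0.08, Tiparp at 0.00 ± 0.13 and Ahrr at -0.09 ± 0.75. Cyp1a1 did not pass the filter on low counts, with 28 counts in 5 explants and 11 in 3 irises.

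Of 35 pathway genes tested between explants and irises, 12 were higher and 0 lower, beside 6.16% and 0.316% of all genes. The 7 from the induced battery included Ugt1a6b (237 against 32 TPM, log2 fold change 3.01 ± 0.32, edgeR adjusted p = 0.00051), Ugt1a6a and Ugt1a7c, glucuronosyltransferases that share 1311 exonic bases and whose counts are not independent. Tdo2 (168 against 14.1 TPM, 3.71 ± 0.48, edgeR adjusted p = 0.0015) and Ido2 (3.73 ± 0.50, adjusted p = 0.0018) stood for the tryptophan enzymes. Bmal1 (Arntl) was higher by 1.99 ± 0.36 (edgeR adjusted p = 0.0077). Without iris 1 or without iris 2, 7 pathway genes were called. Hepatocyte markers were higher in explants too, with sums of 4365 to 6049 TPM against 1444 to 1734 TPM in irises.

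To set the graft beside liver, an iris contribution was taken from the TPM of each explant by the formula of the study, with iris shares of 82%, 68%, 81%, 72% and 59% in explants 1, 2, 4, 5 and 6. These shares were solved from the deposited corrected values, that of explant 4 by another formula than the methods give. Corrected Ahr was 13.5, 14.9, 22.8, 16.2 and 15.4 TPM, which overlapped with the livers and spheroids, and its mean was 12.4 TPM with iris shares 10 percentage points lower and 27.7 TPM with shares 10 points higher. Corrected Cyp1a2 was 190, 172, 301, 364 and 358 TPM, below all livers and both spheroids. With iris shares 10 percentage points higher its mean was 464 TPM, above liver 1 and spheroid 1, so this order depended on the shares. Corrected Cyp1a1 was 0, 1.82, 3.17, 0 and 3.65 TPM, far below the spheroids and overlapping with liver. Thus Cyp1a1 was far below Cyp1a2 in the corrected explants, as it was in the livers. Cyp1a2 itself was 172 to 364 TPM in the corrected explants and 437 to 1033 TPM in the livers. The corrected Cyp1a1 values rest on 2 to 11 counts per explant.

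After the correction Cyp1b1 was above liver in every explant, and Cyp1b1, Aldh3a1, Tiparp and Ahrr all varied widely. Corrected Cyp1b1 was 61.5, 67.2, 141, 38.9 and 15.4 TPM, all above the livers, of which liver 1 was highest with 10.1 TPM. Iris markers remained after the correction. The 5 markers summed to 222, 133, 192, 127 and 36.5 TPM in the same order, against 4.12 to 4.34 TPM in livers. Their part in the corrected level of Cyp1b1 was not tested. Corrected Aldh3a1 was 280, 273, 2543, 0 and 278 TPM, and the corrected sum of the 4 corneal epithelium markers was 522, 296, 5493, 0 and 407 TPM in the same order. Explant 4 was the highest and explant 5 at 0 in both. Corrected Tiparp was 87.1, 17.2, 104, 23.8 and 23.5 TPM, and explant 2 was below both spheroids. Corrected Ahrr ran from 0 in explants 4 and 6 to 7.60 TPM in explant 1.

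Corrected explants and livers were compared by limma on log2(TPM + 1), a scale that understates the change of low genes. Of 22878 genes tested, 13.3% were called, with a median difference of 0.59 over all genes, and 2 of the 8 members were called. Cyp1a2 differed by -1.47 ± 0.36 (SE) and Cyp1b1 by 3.98 ± 0.83. Leaving out liver 2 gave -1.22 and 3.74, leaving out liver 3 gave -1.34 and 3.36, and neither gene was called then. Ahr differed by -0.17 ± 0.34, Arnt by 0.70 ± 0.33, Tiparp by 2.07 ± 0.65, Cyp1a1 by -1.18 ± 0.71 and Aldh3a1 by 5.20 ± 2.06. Tiparp was called without explant 2 (2.35) and Aldh3a1 without explant 5 (6.99). Before the correction Ahr differed by -1.53 and Cyp1a2 by -3.23.

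Of 35 pathway genes tested between corrected explants and livers, 6 were higher and 7 lower, beside 10.5% and 2.82% of all genes. The count was 8 without liver 1 and 5 without liver 2 or liver 3. Por, the reductase that feeds electrons to microsomal P450 enzymes, was lower at 74.7 against 480 TPM (difference -2.73 ± 0.32, limma adjusted p = 0.0015). Before the correction Por was 134 to 154 TPM in explants and 166 to 173 TPM in irises, so its corrected level depends on the iris shares. Afmid (-1.92 ± 0.29, limma adjusted p = 0.0041) and Kyat1 (-1.95 ± 0.27, adjusted p = 0.0028) were lower as well. Bmal1 (Arntl) was higher, at 116 against 4.27 TPM (4.48 ± 0.55, limma adjusted p = 0.0017). Nqo1 was higher by 2.58 ± 0.53 (limma adjusted p = 0.014), but not called without liver 2 (2.23) or liver 3 (2.25). With the deposited corrected values 0 electron donors and 0 genes of the induced battery were called, so Por and Nqo1 lost their calls. Of the tryptophan enzymes 1 was then called instead of 3, while the bHLH-PAS list kept 4.

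Corrected explants were then compared with spheroids. Of 22706 genes tested, 5.32% were called, with a median difference of 0.55 over all genes, and 2 of the 8 members, Cyp1a1 and Cyp1b1, were called. Cyp1a1 differed by -7.59 ± 0.82 on the log2(TPM + 1) scale, and by -7.49 and not called without spheroid 1. Cyp1b1 was high in corrected explants and at 5 counts in spheroids. Its fitted value, 5.25, depends on the pseudocount, and was 5.32 without spheroid 1 and 5.18 without spheroid 2, in both cases not called. Cyp1a2 differed by -0.82 ± 0.37, Ahr by 0.16 ± 0.46, Arnt by -0.03 ± 0.42, Tiparp by 1.02 ± 0.77 and Aldh3a1 by 5.83 ± 2.51. Of 35 pathway genes, Gsta2 was higher by 1.89 ± 0.36 (limma adjusted p = 0.022), and Por by -2.08 ± 0.40 (adjusted p = 0.024) and Htatip2 by -1.26 ± 0.26 (adjusted p = 0.030) were lower, beside 4.37% and 0.951% of all genes. Without spheroid 1, spheroid 2 or explant 5 the limma count of pathway genes was 0, without explant 2 it was 1 and without explant 6 it was 5.

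The genes whose pattern was most like each member were found by the root mean square difference of centred log2(TPM + 1) values over the 16 samples, among genes with a mean of at least 1 TPM in some group. For Cyp1a1 they were Cyp2b10 (0.96), Sult2a1 (1.03) and Adm2 (1.2), against a median of 2.87 over all genes. Cyp2b10, a P450 known as a target of the receptor CAR, averaged 1642 TPM in spheroids, 67.1 TPM in liver and 24 TPM in the preparations. For Cyp1a2 they were Depp1 (0.42), Slc10a1 (0.44), the bile acid importer of hepatocytes, and Hao1 (0.46), against a median of 2.95.

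For Ahr the nearest were Gsr (0.30), Vtn (0.36) and Glud1 (0.37), and for Arnt Dgkq (0.13), Sfr1 (0.14) and Capns1 (0.14). For Ahrr they were Gpr179 (0.22), Gm7820 (0.27) and Lhfpl4 (0.27), and for Tiparp Ccdc90b (0.18), Gsdme (0.22) and Atp6v0a1 (0.25). For Cyp1b1 they were Itgbl1 (0.37), Thbs2 (0.39) and Tbx20 (0.41). For Aldh3a1 they were the epithelial keratin Krt5 (0.59), Upk3bl (0.67) and Calml3 (0.70), and Krt5 is also on the list of corneal epithelium markers.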

How the data were processed

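Total RNA of 16 samples was sequenced with Smart-seq3 in 3 technical libraries each, 48 in all. According to the methods and the submitters' processing notes, the authors aligned reads with TopHat2 to mm10 (GRCm38), removed duplicates, and counted reads per gene with featureCounts 1.4.6-p5, without strand and with reads counted for every overlapping gene. The authors deposited these counts per library and summed per sample, TPM calculated from them, and explant TPM after subtraction of an iris contribution. In that deposited corrected table the explant columns were treated as a score, because for explant 4 the column follows another formula than the methods give, so the formula of the methods was applied to all 5 explants, with values under 0 set to 0. Libraries were summed. The 92 ERCC controls, with 418 counts in all, were left out.

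In R 4.3.3, edgeR 4.0.16 was fitted to the counts of each pair of groups alone (quasi-likelihood test after filterByExpr and TMM). Corrected explants were compared on log2(TPM + 1) with limma 3.58.1 (trend, mean of at least 1 TPM in either group). P-values were adjusted by Benjamini-Hochberg over all genes tested. Counting intervals were exact at 95%, for members that never exceeded 3 counts within a group, and cover counting error only. The alternatives were DESeq2 1.42.0, limma-voom, other scalings and filters, a fit of all 5 groups, pseudocount 0.1, a filter at a mean of 10 TPM, a replicate block, other iris shares, technical library a alone, and each sample left out. Scripts were tested on simulated data. Members, the 39 pathway genes in 5 lists and the marker lists were chosen with earlier results of these data known. Named genes were all members, called pathway genes, at most 4 uncalled genes of a list, list markers, and the 3 genes most like each member. Values were computed in Python 3.11.15 with pandas 2.3.3 and scipy 1.17.1. The list of receptor chaperones enters the counts over all pathway genes and is not reported here by itself.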

Additional observations from a re-analysis of the deposited data

Results flagged for a closer look

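Aldh3a1 in explant 4 stood apart from the other explants. It was at 541 TPM, and its gap to the next explant took 0.748 of the range of the group, above the limit of 0.71 for 5 samples. After the iris correction it was at 2543 TPM, with a gap of 0.890 of the range. The summed corneal epithelium markers were highest in explant 4 as well, at 1137 TPM before and 5493 TPM after the correction, and their part was not tested. In all, 16 groups of 5 values were examined in this way, and chance flags about 5% of such groups.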

How the results depend on the processing

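In hepatocytes against liver the count of members called was 1 by DESeq2, without the filter on low counts and in the fit of all 5 groups, and the count of pathway genes was 1 by DESeq2, 3 without the filter and 2 in the fit of all 5 groups, against 0 and 0. In spheroids against liver the member count of 1 became 2 by DESeq2, by limma-voom, by library size alone, without the filter and in the fit of all 5 groups, and the pathway count of 6 became 10 without the filter. For corrected explants against liver, 2 members and 13 pathway genes were called, against 1 and 5 with the deposited corrected values and 6 and 24 with TPM before the correction. For corrected explants against spheroids, 2 members and 3 pathway genes were called, against 6 and 17 before the correction, with 0 pathway genes from the deposited corrected values and 5 at a mean of at least 10 TPM. The cause of these shifts was not tested. In hepatocytes against liver, scaling by library size alone moved the median log2 fold change of all genes from 0.01 to -0.10.

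With each sample left out in turn, the member counts ran from 1 to 2 for explants against iris, 6 to 7 for iris against liver, 0 to 0 for hepatocytes against liver, 1 to 2 for spheroids against hepatocytes and against liver, and 0 to 3 for corrected explants against liver and against spheroids, where leaving out a spheroid leaves that group with 1 sample. The pathway counts ran from 7 to 14, 24 to 25, 0 to 0, 5 to 11, 6 to 8, 5 to 13 and 0 to 5 in the same 7 comparisons.

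Deviations of samples with the same replicate number correlated between -0.126 and 0.165. Samples with different numbers were not compared in this way, so these values cannot show whether the numbers pair samples. With a replicate block, corrected explants gave 0 members and 0 pathway genes called against liver and against spheroids, 1 pathway gene was called in hepatocytes against liver, and the other counts of calls stayed within 1.5 times. Samples without a partner of the same number add nothing to the difference in that fit.

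Corrected Ahr averaged 16.6 TPM, 12.4 TPM with iris shares 10 percentage points lower and 27.7 TPM with shares 10 points higher, and corrected Cyp1a2 464 TPM with higher shares against 277 TPM. Of 56 levels under another setting, 9 moved by more than the SD of the group.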

Other observations

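Members of the axis that the comparisons do not use appear in other pairs of groups. Cyp1b1 had summed counts per library total 239 times higher in iris than in hepatocyte-enriched preparations (95% counting interval 65.8 to 1974) and 67.6 times higher than in spheroids (28.9 to 209). Ahrr was 22.1 times higher in iris than in the preparations (5.90 to 187) and 10.5 times higher than in spheroids (3.43 to 52.0). Between spheroids and preparations the intervals for Ahrr (0.242 to 25.3) and Cyp1b1 (0.577 to 37) both held 1, so no difference was detectable at this depth.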
